A study of Homo sapiens with 60 samples.

Results

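The genes described here were 10 feedback and output genes of the ERK MAP kinase pathway, chosen by symbol and measured as 10 of the 60675 genes in the count table: the dual-specificity phosphatases DUSP1, DUSP4, DUSP5 and DUSP6, the Sprouty proteins SPRY2 and SPRY4, the Sprouty-related proteins SPRED1 and SPRED2, PHLDA1, and the ETS transcription factor ETV5. The 10 genes, like the gene lists used below, were chosen with earlier results of these data known. All 10 passed the filter on low counts, as did 17680 genes in all. They were measured by RNA sequencing of SW1783, an established human astrocytoma cell line, exposed for 24 h to an ethanol extract of 1 of 6 herbs or 2 herbal formulas or to vehicle. Each extract was given at 3 doses, called high, medium and low here. Coptidis Rhizoma was used at 14, 2.8 and 0.56 µg/mL. The doses of Bupleuri Radix were 210, 42 and 8.4 µg/mL. The other herbs (Aconiti Lateralis Radix Preparata, Cimicifugae Rhizoma, Zizyphi Fructus and Citri Unshius Pericarpium) as well as Banhasasim-tang and Yijung-tang, both formulas, were each used at 500, 100 and 20 µg/mL. Vehicle cells received DMSO, given as 0.1% in the sample labels and 2% in the series text. Vehicle and each dose of Citri, Cimicifugae, Bupleuri and Aconiti had 3 libraries, each dose of Coptidis, Zizyphi and Yijung-tang had 2, and each dose of Banhasasim-tang had 1. High-dose Aconiti library 1 and low-dose Yijung-tang library 1 stood apart from the others and were left out, so that those groups held 2 libraries and 1 library.

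ERK signalling runs from growth factor receptors through RAS, RAF and MEK to the ERK kinases, which switch on genes that in turn damp the pathway. DUSP phosphatases remove phosphate from MAP kinases, DUSP6 in the cytoplasm and DUSP1, DUSP4 and DUSP5 in the nucleus, while Sprouty and SPRED proteins act upstream, at the level of RAS and RAF. In astrocytoma and other tumours the RNA of DUSP6, SPRY2, SPRY4 and ETV5 is widely used as a readout of ERK output.

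The 58 libraries kept held 15996157 to 30990264 counts each, and the 2 libraries left out held 11329310 and 15421648. Pearson correlation over genes within a group was 0.9944 to 0.9972 for the 45 pairs of kept libraries and 0.9216 to 0.9310 for the 3 pairs that held a left-out library. Nothing in the labels says that libraries of a group came from separate cultures, so a p-value here reflects the spread among these libraries alone, and that spread may be technical. The labelled cell type was only partly matched by its markers: GJA1 (240 CPM in vehicle, where CPM is the count scaled to library size) and SLC1A3 (33.5 CPM) were present, while GFAP, AQP4, S100B, ALDH1L1 and SLC1A2 were each at 0.334 CPM or less in vehicle. Lists of other cell types also held genes present and genes near 0. Of the neuron markers, TUBB3 (111 CPM in vehicle), SNAP25 (32.2 CPM) and SYT1 (31.2 CPM) were present and RBFOX3 was at 0.108 CPM. Of the oligodendrocyte markers, CNP was at 159 CPM and MBP at 5.89 CPM, while MOG was at 0 in all 58 libraries. The endothelial marker KDR was at 26.6 CPM and CDH5 at 0 in vehicle, and the microglia marker TYROBP was at 0 in all 58 libraries. The summed level of the 4 epithelial markers, nearly all of it KRT18 and KRT8, was 254 to 264 CPM in vehicle, 164 to 167 CPM at high-dose Coptidis and 60.2 to 63.6 CPM at high-dose Bupleuri, and that of the 6 microglia and leukocyte markers, mostly PTPRC and CSF1R, was 15.5 to 17.8, 6.12 to 6.28 and 5.96 to 6.22 CPM. In the same order of groups, the 7 astrocyte markers summed to 270 to 277, 241 to 260 and 315 to 329 CPM, the last above vehicle. The 6 neuron markers summed to 174 to 176, 108 to 113 and 121 to 127 CPM, and the 5 oligodendrocyte markers to 157 to 175, 110 to 112 and 138 to 149 CPM. The 5 endothelial markers summed to 27.5 to 30.3, 35.8 to 37.8 and 37 to 39.6 CPM. The epithelial sum was below vehicle at the other high doses too. It was 180 to 194 CPM with Zizyphi, 151 to 156 CPM with Aconiti and 133 to 145 CPM with Citri. With Cimicifugae it was 121 to 124 CPM, with Yijung-tang 120 to 125 CPM and in the Banhasasim-tang library 138 CPM. All groups were of the same labelled cell line, so these sums are levels of marker genes and do not count cells of other types. In bulk RNA, fewer cells holding a transcript and less of it per cell cannot be told apart. The part of these shifts in the results was not tested.

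Per kilobase of exon, the most abundant of the 10 genes in vehicle was PHLDA1 at 26.1 CPM per kb, followed by ETV5 at 21.7, DUSP1 at 16.4 and DUSP4 at 13.1. SPRED1 (8.86), SPRY2 (6.58) and SPRED2 (6.53) were intermediate. DUSP5 (4.5), DUSP6 (4.41) and SPRY4 (3.89) were lowest on this scale. Counts of DUSP6 and PHLDA1 could hold reads of antisense genes, since how strand was used in the counting is not given in these sources: AC024909.2, which shares 1875 exonic bases with DUSP6, had a median of 0.31 and a highest value of 0.765 CPM in the kept libraries, and AC011611.3, which shares 553 with PHLDA1, a median of 0.769 and a highest value of 6.38 CPM, the latter in vehicle. In high-dose Aconiti library 1, one of those left out, they were at 3.27 and 21.5 CPM. A second antisense gene, AC011611.4, shares 779 exonic bases with PHLDA1 and had a median of 0.0412 and a highest value of 0.274 CPM in the kept libraries. ETV5 shares 164 exonic bases with DGKG on the same strand, which had a median of 11.9 CPM. DGKG was at 2.3 and 3.47 CPM at high-dose Coptidis against 11.3 and 12.9 CPM at the low dose. At high-dose Bupleuri it was at 17.8, 18.9 and 18.9 CPM against 11.8, 12 and 11.3 CPM. The CPM of these overlapping genes are per total count, without TMM scaling.

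The high dose of each extract was compared with its low dose (for Yijung-tang, with its medium dose), because both doses carry the same set number, whereas no vehicle library carries the set number of an extract. The genes rose far more often than they fell. Of 70 gene and extract pairs 41 were higher at the high dose, 2 were lower and 27 did not pass the test (edgeR quasi-likelihood test, Benjamini-Hochberg adjusted p under 0.05). The pairs reuse the same 10 genes, which were chosen with earlier results known, so this count is no test of the genes as a group. All 10 genes rose with Bupleuri, where 39.2% of all genes tested were called, 20.6% higher and 18.6% lower. With Aconiti 8 of 10 rose, where 4.28% of all genes were higher and 5.25% lower (9.53% called). With Cimicifugae 8 of 10 passed the test as higher (4.88% higher and 5.81% lower, 10.7% called), but the count was 4 without low-dose library 1 or high-dose library 3, 5 without high-dose library 2, 4 with only the groups compared in the fit and 1 with both left-out libraries put back. With Coptidis 7 rose and 2 fell (33.2% higher and 32.4% lower), a contrast in which most genes tested, 65.6%, were called. Citri raised 4 (6.44% higher and 7.34% lower, 13.8% called), Zizyphi 2 (3.12% and 4.28%, 7.4% called) and Yijung-tang 2 (4.11% and 5.05%, 9.16% called). The 10 genes had a median log2 fold change of 0.79 with Coptidis, of 0.54 with Aconiti and of 0.50 with Bupleuri. The median was 0.20 with Cimicifugae, 0.08 with Citri, 0.05 with Yijung-tang and 0.01 with Zizyphi, while that of all genes tested lay between -0.02 and 0.00. Each pair of herbs with the same set number was also compared by the difference of the 2 dose effects, and 12 of 30 such differences were called: 7 for Coptidis minus Zizyphi (55.3% of all genes called), 2 for Citri minus Cimicifugae (1.07%) and 3 for Bupleuri minus Aconiti (23.4%). With the left-out libraries put back, 24 of the 70 pairs were called. By extract these were 7 for Bupleuri, 7 for Aconiti, 6 for Coptidis, 2 for Citri, 1 for Zizyphi, 1 for Cimicifugae and 0 for Yijung-tang.

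**Figure D1:**
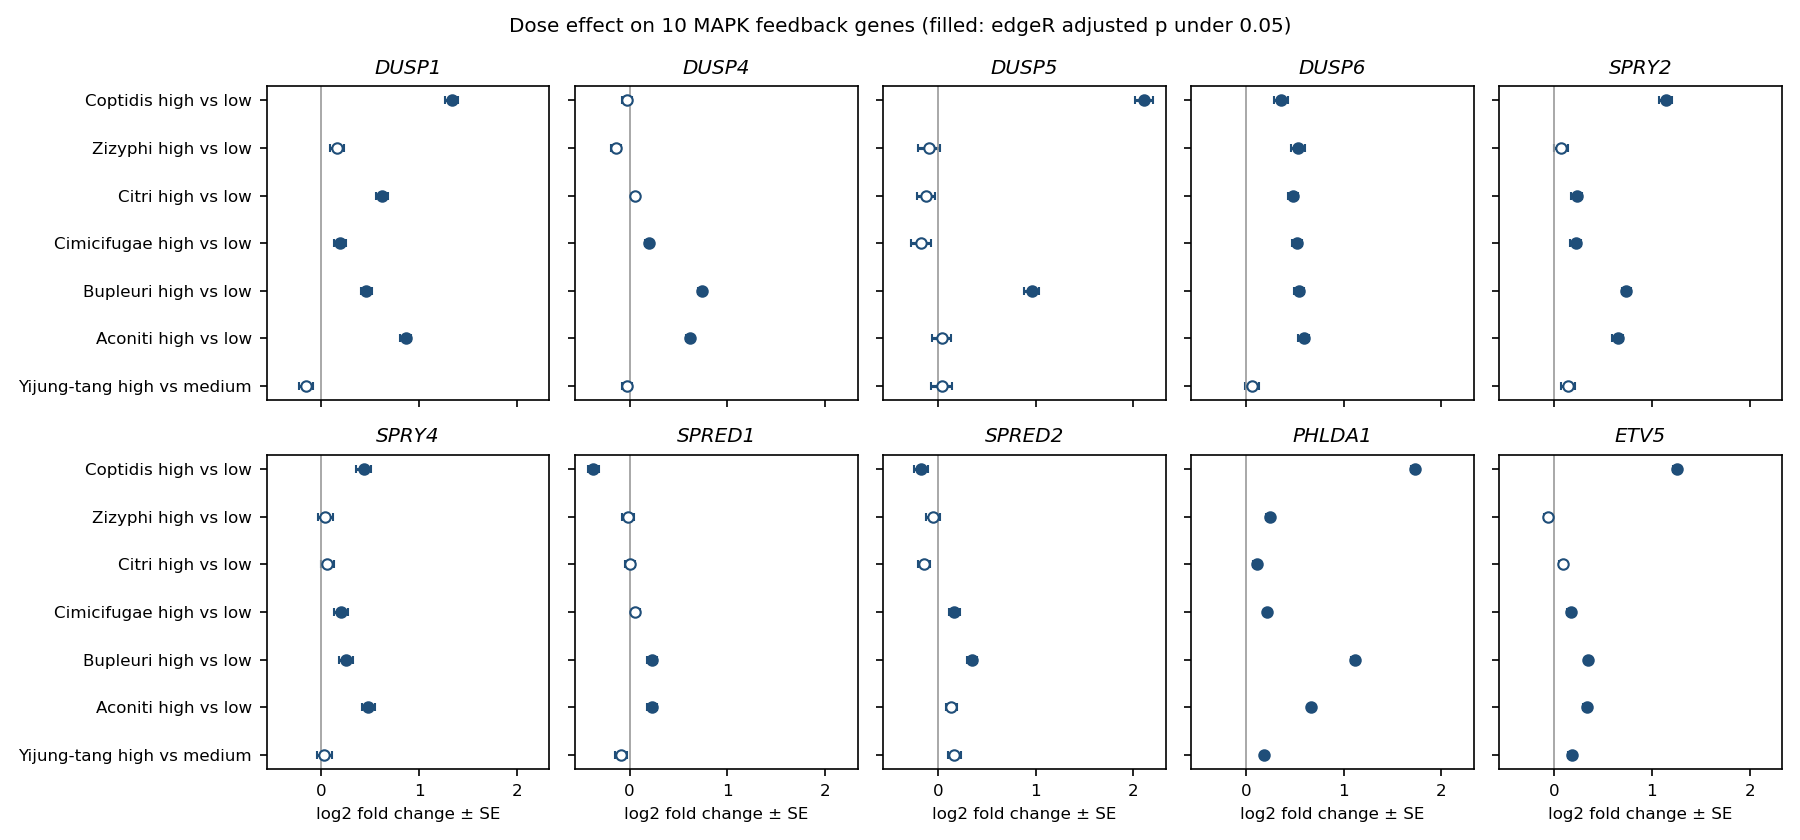
Log2 fold change of each of the 10 genes between the high and the low dose of each extract (high and medium for Yijung-tang), on the x axis, with bars of 1 SE. Filled points passed the test and open points did not. DUSP6 lies between 0.36 and 0.59 in all 6 herbs, whereas DUSP5 is at 2.11 with Coptidis, at 0.96 with Bupleuri and near 0 with the other extracts.

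Among the herbs, DUSP6 and PHLDA1 were called higher in all 6, while DUSP1 and SPRY2 were called in the same ones, all but Zizyphi. The largest rises of DUSP1 were with Coptidis and Aconiti, and those of SPRY2 with Coptidis and Bupleuri. The regions before a RefSeq start of DUSP1, DUSP6 and SPRY2 are shown. Each is the 250 bases before the RefSeq transcription start (GRCh38.p14, minus strand for all 3), at chr5:172771196-172771445 for DUSP1, chr12:89352502-89352751 for DUSP6 and chr13:80341127-80341376 for SPRY2, the first of 3 listed starts of SPRY2. Capitals mark matches to any of 5 motifs searched on both strands: the cyclic AMP response element CRE (TGACGTCA), its core TGACG, which lies inside the CRE, the AP-1 site TGANTCA, an ETS motif CCGGAAG, and the TATA box TATAAA.
DUSP1: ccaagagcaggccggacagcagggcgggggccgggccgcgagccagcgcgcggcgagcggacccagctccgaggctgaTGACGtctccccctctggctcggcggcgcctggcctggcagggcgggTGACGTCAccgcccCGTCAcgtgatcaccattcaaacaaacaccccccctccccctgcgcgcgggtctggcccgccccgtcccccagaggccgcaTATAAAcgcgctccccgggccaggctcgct
DUSP6: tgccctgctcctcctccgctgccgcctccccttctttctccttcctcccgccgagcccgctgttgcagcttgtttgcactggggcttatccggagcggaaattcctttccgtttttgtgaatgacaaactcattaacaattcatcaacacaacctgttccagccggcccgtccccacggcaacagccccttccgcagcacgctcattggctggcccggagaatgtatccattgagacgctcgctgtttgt
SPRY2: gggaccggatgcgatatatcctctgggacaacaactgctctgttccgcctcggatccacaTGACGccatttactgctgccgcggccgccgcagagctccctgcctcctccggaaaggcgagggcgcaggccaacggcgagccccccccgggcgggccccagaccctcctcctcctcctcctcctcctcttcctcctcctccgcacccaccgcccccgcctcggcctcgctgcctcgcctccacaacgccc
The DUSP1 sequence held a CRE starting at position -125 from the transcription start, 4 TGACG cores counting the overlapping matches in the CRE, and a TATA box at -30. A CRE was present in 1.85% of the 35116 RefSeq windows of 300 bases searched, the core in 24.6% and the TATA box in 11.5%. The SPRY2 sequence held 1 TGACG core at -190. The DUSP6 window held none of the 5 letter strings, of which the AP-1 site occurred in 7.71% of windows and the ETS motif in 10.3%. The PHLDA1 window, not shown, held none of them either. Both windows lie inside the annotated spans of their genes given below, so they do not show the bases before the outermost annotated start. RefSeq windows were matched for 7 of the 10 genes. A match describes these letters only.

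DUSP6 (ENSG00000139318, chr12:89347232-89353271, minus strand, GRCh38), the cytoplasmic ERK phosphatase, was the gene whose response varied least among herbs. At the high dose it was at 27.3 and 25.6 CPM with Coptidis, against 20.7 and 20.7 CPM at the low dose. Per total count, without TMM scaling, these were 22.8 and 21.5 CPM against 20.6 and 20.7 CPM, so the size of this rise depended on the scaling. High-dose Zizyphi had 31.7 and 32.1 CPM against 21.3 and 23.3 CPM, and high-dose Citri 29.2, 32.7 and 31.1 CPM against 22.3, 19.9 and 24 CPM. In each of these herbs every high-dose library lay above every low-dose library. The share of all genes tested whose libraries separate in this way was not counted, for this gene or those below. Separation of so few libraries per dose is therefore given as a description only. High-dose Cimicifugae had 31, 33.7 and 33.3 CPM against 22.3, 22.7 and 23.5 CPM, and high-dose Bupleuri 35.5, 34.9 and 35 CPM against 24.3, 24.9 and 23.5 CPM. The 2 kept high-dose Aconiti libraries had 34.4 and 37.8 CPM, the one left out 32.4 CPM, and the low dose 24.5, 23.5 and 24.1 CPM. The groups did not overlap in these herbs either. The log2 fold changes were 0.36 ± 0.07 (SE) for Coptidis, 0.53 ± 0.07 for Zizyphi, 0.48 ± 0.05 for Citri, 0.52 ± 0.05 for Cimicifugae, 0.54 ± 0.05 for Bupleuri and 0.59 ± 0.06 for Aconiti, with adjusted p from 8.24e-12 for Bupleuri to 1.48e-05 for Coptidis. The difference between the 2 herbs of a set did not pass the test in any of the 3 sets: it was -0.16 (95% interval -0.35 to 0.02) for Coptidis minus Zizyphi, -0.03 (-0.18 to 0.11) for Citri minus Cimicifugae and -0.05 (-0.21 to 0.10) for Bupleuri minus Aconiti. With Yijung-tang DUSP6 did not pass the test, with 26.4 and 24.5 CPM at the high and 23 and 25.8 CPM at the medium dose, a log2 fold change of 0.06 (-0.07 to 0.19) with overlapping libraries.

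DUSP1 (ENSG00000120129, chr5:172768090-172771195, minus strand), the nuclear phosphatase for p38, JNK and ERK that is induced by stress and by growth factors, changed in a graded way between herbs. With Coptidis its libraries went from 39.6 and 40 CPM at the low dose to 102 and 97.2 CPM at the high dose, a rise of 1.33 ± 0.07 on the log2 scale. With Aconiti they went from 43.6, 38.3 and 36.5 CPM to 71.1 and 71 CPM, and the library left out had 90.8 CPM. These groups did not overlap, and the rise with Aconiti was 0.86 ± 0.06. Citri gave 59.8, 63.1 and 61.9 CPM against 38.4, 42 and 40 CPM (0.62 ± 0.06), and Bupleuri 51.2, 55 and 57 CPM against 37.8, 39.6 and 41.4 CPM (0.46 ± 0.06). With Cimicifugae the high dose, at 42.7, 45 and 45.8 CPM, overlapped the low dose, at 36, 43.4 and 37.7 CPM. That difference of 0.19 ± 0.06 was called (adjusted p = 0.0281) but lost its call without low-dose library 1 (0.14), low-dose library 3 (0.16), high-dose library 2 (0.19) or high-dose library 3 (0.17). Zizyphi (0.16, adjusted p = 0.169) and Yijung-tang (-0.16, adjusted p = 0.185) did not pass the test. Within the sets the DUSP1 response was larger with Coptidis than with Zizyphi by 1.16 ± 0.10 and larger with Citri than with Cimicifugae by 0.43 ± 0.08. The latter call was lost without all libraries numbered 2 (0.37, adjusted p = 0.313) or 3 (0.47, adjusted p = 0.0541) and with both left-out libraries put back (0.43, adjusted p = 0.594). The DUSP1 response was smaller with Bupleuri than with Aconiti, by -0.40 ± 0.08, a call lost in 1 of 21 alternative analyses.

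DUSP5 (ENSG00000138166, chr10:110497838-110511544, plus strand), a nuclear phosphatase specific for ERK, rose with 2 herbs. With Coptidis it was at 56.4 and 51.5 CPM at the high dose and 12.9 and 12.1 CPM at the low dose, a rise of 2.11 ± 0.09 and the largest log2 fold change among the 70 pairs. With Bupleuri it was at 24.1, 24.2 and 22.1 CPM against 12.8, 11.1 and 12.3 CPM (0.96 ± 0.08). Both herbs separated all high-dose from all low-dose libraries. The 2 kept high-dose Aconiti libraries, at 11.5 and 12.8 CPM, fell within the range of the low dose, at 13.8, 11.2 and 10.7 CPM, and the library left out had 16.9 CPM. In the other 4 extracts the log2 fold change lay between -0.17 and 0.04 and was not called. The DUSP5 response with Coptidis exceeded that with Zizyphi by 2.20 ± 0.14, and that with Bupleuri exceeded that with Aconiti by 0.92 ± 0.13.

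DUSP4 (ENSG00000120875, chr8:29333064-29350668, minus strand), a nuclear phosphatase for ERK and JNK, did not follow DUSP5. With Coptidis it stayed at 97.4 and 95.7 CPM against 98.8 and 99.4 CPM, a log2 fold change of -0.03 (95% interval -0.13 to 0.06). With Bupleuri it was at 176, 162 and 175 CPM against 103, 102 and 101 CPM, and with Aconiti at 151 and 147 CPM against 97.9, 95.6 and 98.7 CPM. The left-out Aconiti library had 148 CPM, and high and low doses of both herbs were far apart. These rises were 0.74 ± 0.04 and 0.62 ± 0.04, and their difference of 0.13 (0.01 to 0.24) was not called (adjusted p = 0.119). A smaller rise of 0.20 ± 0.04 was called with Cimicifugae, from 98.7, 92.1 and 98.4 CPM to 107, 113 and 113 CPM. Its call was lost without all libraries numbered 2 (0.16) and with both left-out libraries put back (0.21, adjusted p = 0.081). High-dose Zizyphi, at 85.5 and 85.2 CPM, lay below its low dose, at 90.8 and 98.3 CPM, but the difference of -0.14 did not pass the test (adjusted p = 0.0731).

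**Figure D2:**
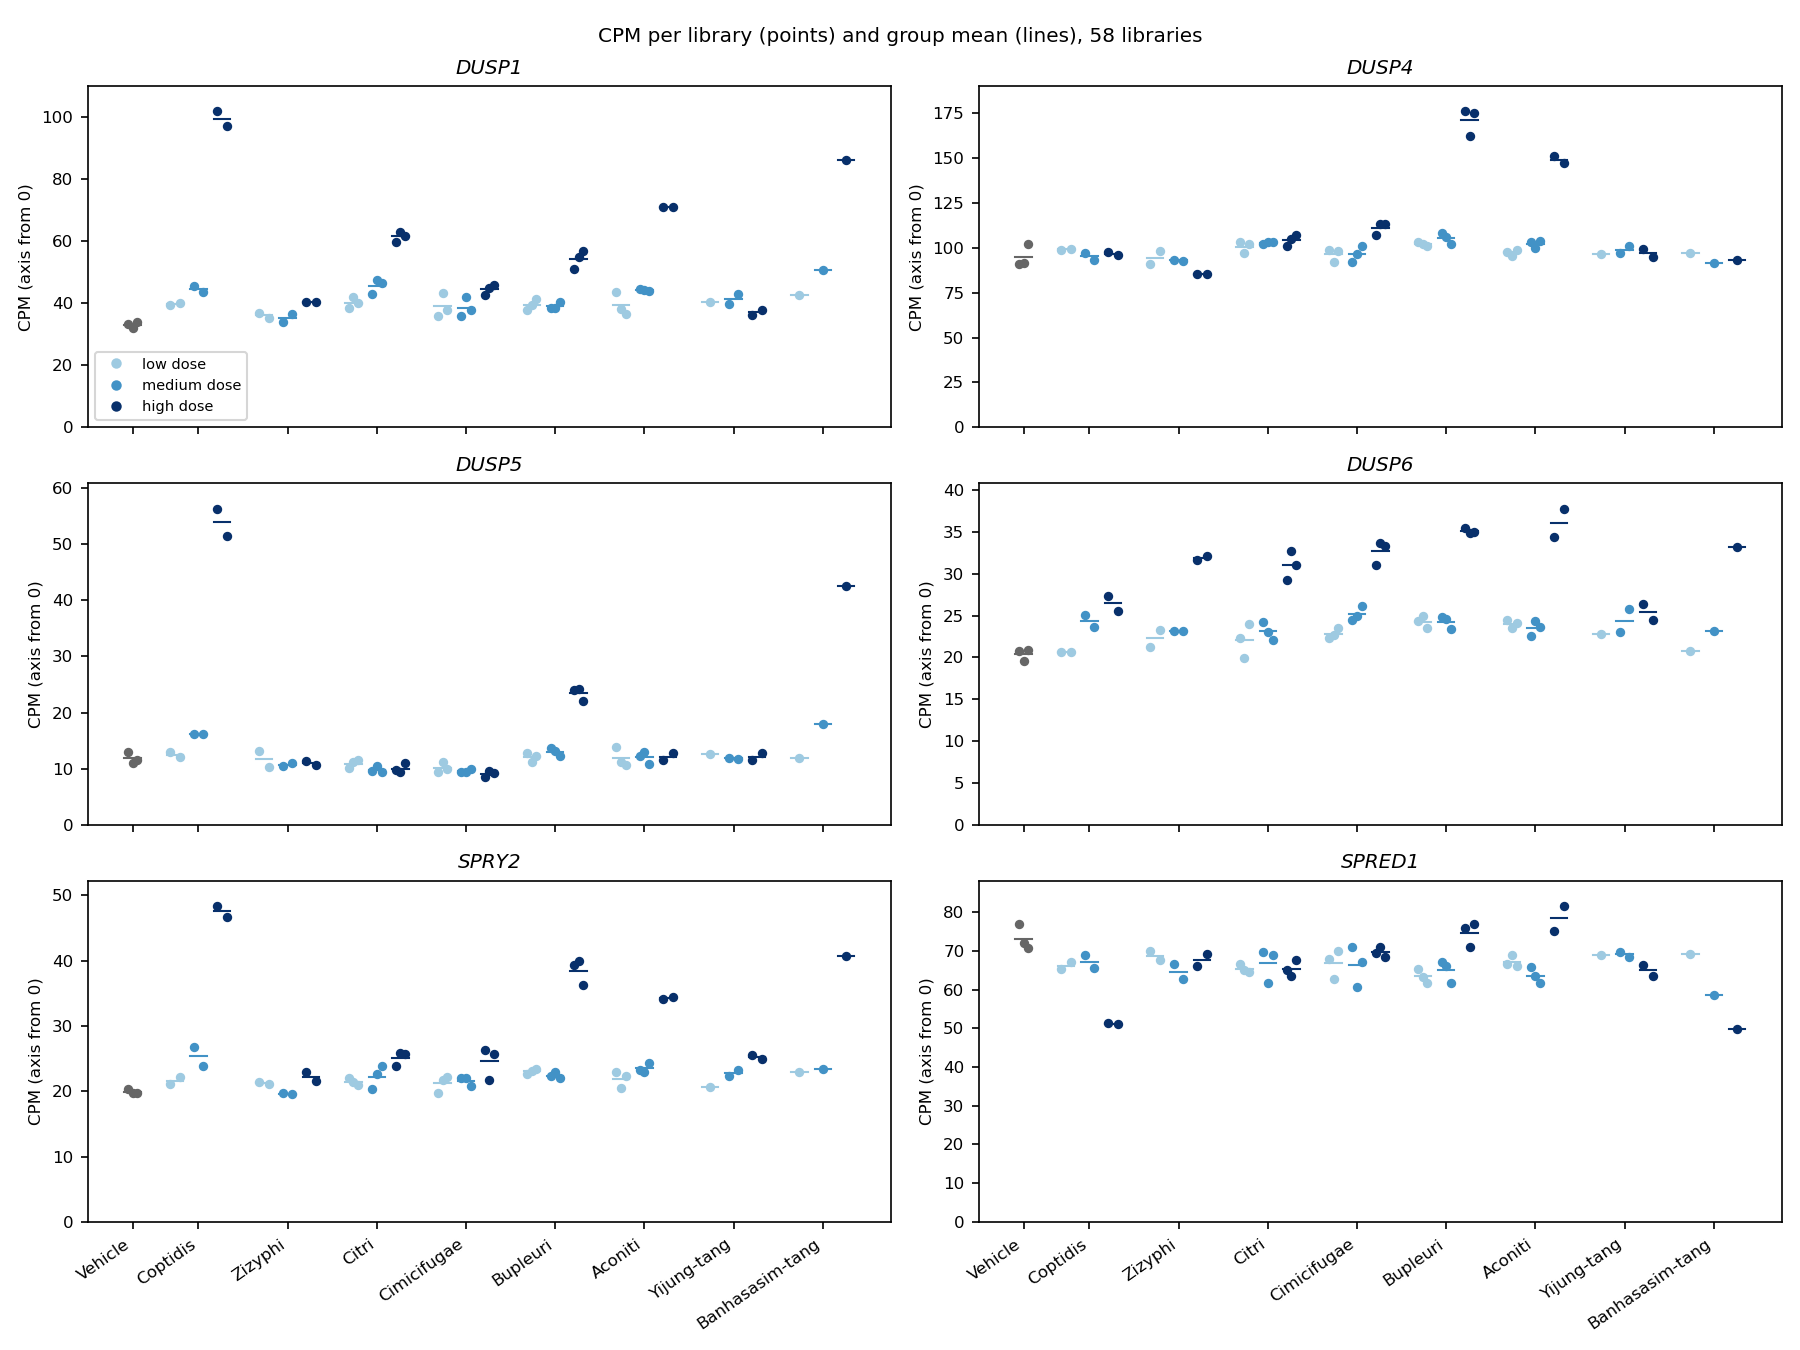
CPM of DUSP1, DUSP4, DUSP5, DUSP6, SPRY2 and SPRED1 on the y axis, by extract on the x axis, in the 58 kept libraries (points, darker at higher doses, vehicle in grey) with group means (lines). High-dose Coptidis is highest for DUSP1, DUSP5 and SPRY2 and close to Banhasasim-tang at the bottom for SPRED1, high-dose Bupleuri and Aconiti are highest for DUSP4, and the high doses of the 6 herbs lie above their low doses for DUSP6.

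SPRY2 (ENSG00000136158, chr13:80335976-80340951, minus strand), an inhibitor of receptor-driven RAS and RAF activation, rose with 5 of the 7 extracts. Its libraries were at 48.4 and 46.7 CPM at high-dose Coptidis against 21.1 and 22.2 CPM at the low dose, and at 39.3, 39.9 and 36.3 CPM at high-dose Bupleuri against 22.6, 23.1 and 23.4 CPM. High-dose Aconiti had 34.2 and 34.5 CPM, with 34.7 CPM in the library left out, against 23, 20.5 and 22.3 CPM. High and low doses did not overlap in any of these 3 herbs, with rises of 1.14 ± 0.07, 0.74 ± 0.05 and 0.65 ± 0.06. Citri (0.23 ± 0.06) and Cimicifugae (0.22 ± 0.06) gave smaller rises. The Cimicifugae call was lost without high-dose library 1 (0.16), low-dose library 1 (0.17) or high-dose library 3 (0.19). The Citri call was lost without all libraries numbered 2 (0.21) or 3 (0.19). With both left-out libraries put back, neither was called (adjusted p = 0.222 for Citri and 0.383 for Cimicifugae). The rise with Coptidis exceeded that with Zizyphi by 1.07 ± 0.10. Those with Bupleuri and Aconiti differed by 0.09 (95% interval -0.06 to 0.25), which was not called.

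SPRY4 (ENSG00000187678, chr5:142310427-142326455, minus strand), a second inhibitor of the same step, responded less. It was at 42.9 and 43 CPM in the kept high-dose Aconiti libraries against 31.6, 30.1 and 30.6 CPM at the low dose, a rise of 0.48 ± 0.07, and the library left out was at 62.1 CPM. With Coptidis it was at 36.2 and 40.4 CPM against 29.5 and 27.3 CPM (0.43 ± 0.08), and with Bupleuri at 36.5, 35.6 and 35.8 CPM against 30.7, 31.5 and 28.9 CPM (0.25 ± 0.07). In all 3 herbs the groups did not overlap. With both left-out libraries put back, the calls with Coptidis (0.43, adjusted p = 0.0547) and Bupleuri (0.24, adjusted p = 0.365) were lost. The Cimicifugae rise of 0.20 ± 0.07 just passed the test (adjusted p = 0.0481) with overlapping libraries, and lost its call without low-dose library 1 (0.14), low-dose library 2 (0.19), high-dose library 2 (0.20) or high-dose library 3 (0.17). The difference of 0.39 ± 0.12 between Coptidis and Zizyphi was called (adjusted p = 0.00419), but not without high-dose Coptidis library 3 (0.31, adjusted p = 0.0515) or high-dose Zizyphi library 3 (0.30, adjusted p = 0.0583).

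The Sprouty-related genes held both decreases. SPRED1 (ENSG00000166068, chr15:38252326-38357249, plus strand), which brings the RAS GTPase-activating protein neurofibromin to the membrane, was at 51.4 and 51 CPM at high-dose Coptidis against 65.2 and 67.1 CPM at the low dose, and fell by 0.37 ± 0.06 on the log2 scale. It rose with Bupleuri, where libraries at 75.8, 71.1 and 76.8 CPM lay above those at 65.4, 63.3 and 61.8 CPM (0.23 ± 0.05). In both herbs the doses did not overlap, and they moved in opposite directions. With both left-out libraries put back, neither the Coptidis value (-0.37, adjusted p = 0.153) nor the Bupleuri value (0.23, adjusted p = 0.486) was called. With Aconiti the kept high-dose libraries had 75.2 and 81.6 CPM against 66.5, 68.8 and 66 CPM (0.23 ± 0.05, adjusted p = 0.00338), while the library left out had 32 CPM. With both left-out libraries put back the Aconiti value became -0.08, which was not called, and without high-dose library 3 it was 0.16 (adjusted p = 0.2). The SPRED1 change with Coptidis was below that with Zizyphi by -0.34 ± 0.09, a call that was lost without all libraries numbered 3 (-0.27, adjusted p = 0.0914) and with both left-out libraries put back (-0.35, adjusted p = 0.414).

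SPRED2 (ENSG00000198369, chr2:65310851-65432637, minus strand), which acts in the same way, was at 29.8 and 28.7 CPM at high-dose Coptidis against 33.3 and 32.7 CPM, a decrease of -0.17 ± 0.07 (adjusted p = 0.0295). The groups did not overlap, but the call was lost without low-dose Coptidis library 2 (-0.16, adjusted p = 0.12) or high-dose library 3 (-0.15, adjusted p = 0.136). With Bupleuri it rose by 0.35 ± 0.05, from 32.8, 30.3 and 30.6 CPM to 39.1, 40.4 and 39.3 CPM. This was the largest change of the gene among the 7 extracts, but its call was lost with both left-out libraries put back (0.34, adjusted p = 0.309). With Cimicifugae it rose by 0.17 ± 0.06 (adjusted p = 0.0356), a call lost without low-dose library 1 (0.12), low-dose library 2 (0.18), high-dose library 2 (0.16) or high-dose library 3 (0.14). With Citri it was lower at the high dose by -0.14 ± 0.06 without passing the test (adjusted p = 0.0869). The Citri and Cimicifugae values differed by -0.31 ± 0.08 (adjusted p = 0.0323), a call that was lost when any 1 of 9 of the libraries was left out, with values of -0.32 to -0.26: it held without high-dose Citri library 3, low-dose Cimicifugae library 3 or high-dose Cimicifugae library 1.

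PHLDA1 (ENSG00000139289, chr12:76025447-76033932, minus strand), a pleckstrin-homology-like protein whose gene is a common target of ERK, passed the test as higher with all 7 extracts. At high-dose Coptidis it was at 680 and 657 CPM against 203 and 200 CPM (1.73 ± 0.04), and at high-dose Bupleuri at 464, 433 and 448 CPM against 206, 205 and 208 CPM (1.12 ± 0.04). The kept high-dose Aconiti libraries had 338 and 331 CPM against 221, 210 and 203 CPM (0.67 ± 0.04), and the library left out had 176 CPM. Except for that library, high and low doses were well separated. The rises with Zizyphi (0.25 ± 0.04), Cimicifugae (0.22 ± 0.04), Yijung-tang (0.19 ± 0.04) and Citri (0.11 ± 0.04) were smaller. For Citri the libraries were at 213, 213 and 219 CPM against 197, 202 and 197 CPM, and the call was lost without low-dose library 1 (0.11), low-dose library 3 (0.11), high-dose library 2 (0.12) or high-dose library 3 (0.10). The Zizyphi call was lost without all libraries numbered 2 (0.25, adjusted p = 0.104) or 3 (0.24, adjusted p = 0.0503), and that of Yijung-tang without those numbered 1 (0.19, adjusted p = 0.057) or 2 (0.19, adjusted p = 0.301). With both left-out libraries put back, none of these 4 smaller rises was called (adjusted p of 0.781 for Cimicifugae and 1 for the others). The PHLDA1 response with Coptidis exceeded that with Zizyphi by 1.49 ± 0.06, and that with Bupleuri exceeded that with Aconiti by 0.46 ± 0.05.

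ETV5 (ENSG00000244405, chr3:186046308-186110318, minus strand), an ETS transcription factor of the PEA3 group that is induced downstream of ERK, rose with 5 extracts. It was at 256 and 277 CPM at high-dose Coptidis against 112 and 111 CPM at the low dose (1.26 ± 0.04). With Bupleuri it was at 142, 134 and 139 CPM against 109, 110 and 107 CPM (0.35 ± 0.03), and with Aconiti at 139 and 140 CPM against 109, 108 and 114 CPM (0.34 ± 0.04), with 141 CPM in the library left out. The groups did not overlap in these 3 herbs. Cimicifugae raised it by 0.17 ± 0.04, a call lost with both left-out libraries put back (0.18, adjusted p = 0.198). Yijung-tang raised it by 0.18 ± 0.04, from 112 and 110 CPM at the medium dose to 122 and 129 CPM, a call that was lost without high-dose library 2 (0.14, adjusted p = 0.113) or medium-dose library 2 (0.17, adjusted p = 0.0521). Its response with Coptidis exceeded that with Zizyphi by 1.33 ± 0.06. Those with Bupleuri and Aconiti differed by 0.00 (95% interval -0.10 to 0.10), which was not called.

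Between the low and the medium dose the called pairs were those of Coptidis, and the difference from the other herbs was not tested. With Coptidis 5 of 10 rose, where 13.6% of all genes tested were called and 7.68% were higher: ETV5 by 0.39 ± 0.04, DUSP5 by 0.37 ± 0.10, DUSP6 by 0.24 ± 0.07, SPRY2 by 0.23 ± 0.07 and PHLDA1 by 0.22 ± 0.04. Medium-dose Coptidis libraries were at 144 and 147 CPM for ETV5 and 16.2 and 16.1 CPM for DUSP5, between the low and the high dose and overlapping neither. Per total count, without TMM scaling, DUSP6 was at 22.6 and 21.2 CPM at the medium against 20.6 and 20.7 CPM at the low dose. PHLDA1 was then at 211 and 209 against 202 and 200 CPM, and ETV5 at 130 and 132 against 111 and 111 CPM. These differences were smaller than with the scaling and were not tested. In the other 5 herbs 0 of 50 pairs were called by edgeR and 0 by DESeq2, and 5 had an unadjusted edgeR p under 0.05. Of all genes tested, 0.00566% were called with Zizyphi and with Citri, 0.0509% with Aconiti, 0.368% with Bupleuri and 0.385% with Cimicifugae.

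Against vehicle, 49 of 70 pairs were called at the high dose, 40 higher and 9 lower. The higher ones held DUSP6 in all 7 extracts, from 0.31 ± 0.06 with Yijung-tang to 0.82 ± 0.06 with Aconiti, over vehicle libraries at 20.8, 19.6 and 20.9 CPM. DUSP1, at 33.2, 32.1 and 34 CPM in vehicle, was higher in 6, from 0.29 ± 0.07 with Zizyphi to 1.60 ± 0.06 with Coptidis. SPRY2 and SPRY4 were also higher in 6 each. Against vehicle, Coptidis had 7 of the 10 genes higher and 2 lower (34% and 32.6% of all genes, 66.6% called), and Bupleuri 9 higher (20.2% of all genes higher and 19.4% lower, 39.6% called). Aconiti had 7 higher (12.7% and 15%, 27.6% called). Citri had 5 higher and 3 lower (14.3% and 17.1%, 31.5% called), and Cimicifugae 5 higher and 1 lower (16.5% and 19.2%, 35.7% called). Zizyphi had 4 higher and 2 lower (9.64% and 12%, 21.6% called), and Yijung-tang 3 higher and 1 lower (14.1% and 16.7%, 30.8% called). For Citri the count of 8 called became 5 without vehicle library 2. The lower calls were those of SPRED1 with Coptidis, Citri and Yijung-tang, SPRED2 with Coptidis and Citri, ETV5 with Zizyphi and Citri, DUSP4 with Zizyphi and DUSP5 with Cimicifugae. Of these, SPRED1 with Coptidis and ETV5 with Zizyphi held in every alternative analysis. The others were each lost in at least 1, such as DUSP4 with Zizyphi in 8 of 14 and SPRED1 with Yijung-tang in 6 of 14. Of all 49 calls, higher and lower, 32 held in every alternative analysis.

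The vehicle libraries also differed from the lowest doses, and set and treatment cannot be told apart in this comparison. At the low dose 21 of 60 pairs were called against vehicle. ETV5 was lower in all 6 herbs, by -0.21 to -0.17, with low-dose libraries of 107 to 114 CPM against 126, 125 and 126 CPM in vehicle. DUSP1 was higher in 5 of 6, by 0.23 to 0.28. By herb, the genes called numbered 6 for Bupleuri (26.9% of all genes), 5 for Cimicifugae (20.8%), 4 for Aconiti (20%), 3 for Citri (16.1%), 2 for Coptidis (7.32%) and 1 for Zizyphi (11.8%). At the medium dose 38 of 70 pairs were called: 8 for Aconiti (26.2%), 7 for Coptidis (25.9%), 6 for Cimicifugae (31.8%), 6 for Bupleuri (22.7%), 5 for Yijung-tang (15.3%), 4 for Citri (17.9%) and 2 for Zizyphi (13.7%). Medium-dose ETV5 was again lower, in 6 of 7 extracts, the exception being Coptidis, where it was higher by 0.22 ± 0.04. Medium-dose DUSP1 and DUSP6 were higher in 6 of 7 each.

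**Figure D3:**
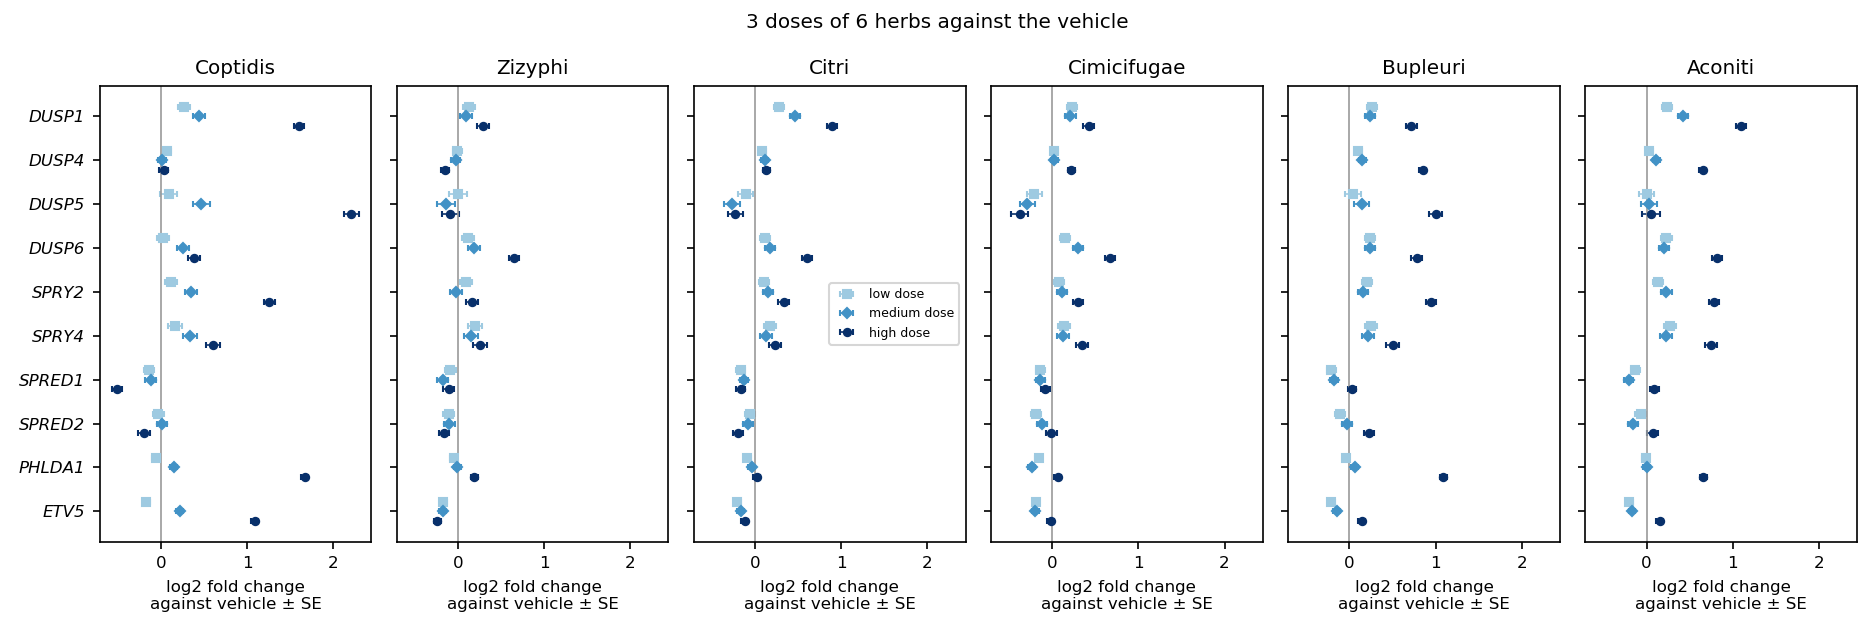
Log2 fold change of each gene against vehicle, on the x axis with bars of 1 SE, at the low, medium and high dose of the 6 herbs. Low-dose ETV5 lies below 0 in all 6 herbs and low-dose DUSP1 above 0, and with Coptidis, Bupleuri and Aconiti most of the rise of SPRY2 and PHLDA1 lies between the medium and the high dose.

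Banhasasim-tang had 1 library per dose, so that its values have no replicate check and no test. Its high-dose library lay above all 3 vehicle libraries for 7 of the 10 genes, where 40.7% of all genes tested did, and below them for 2, where 39.4% did. DUSP1 was at 86.3 CPM, DUSP5 at 42.6, DUSP6 at 33.2, SPRY2 at 40.7, SPRY4 at 39.5, PHLDA1 at 456 and ETV5 at 200 CPM. SPRED1 (49.9 CPM) and SPRED2 (28.1 CPM) were the 2 below, and DUSP4 (93.1 CPM) was within the vehicle range. Banhasasim-tang and Coptidis are set against the same 3 vehicle libraries here. The medium-dose library also had 7 above (35.2% of all genes) and 2 below (35.3%), with DUSP5 at 18, PHLDA1 at 227 and ETV5 at 137 CPM. The low-dose library had 3 above (31%) and 3 below (31.3%). The kept low-dose Yijung-tang library had 4 above (31.1%) and 3 below (31.1%).

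**Figure D4:**
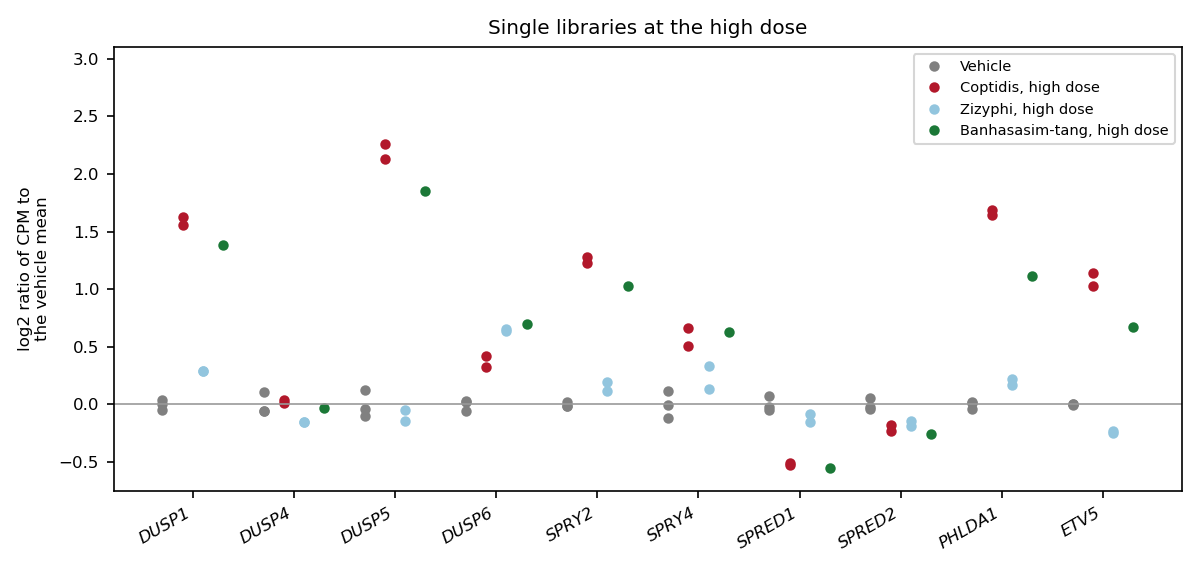
Log2 ratio of CPM to the vehicle mean, on the y axis, for each of the 10 genes in single libraries of vehicle and of the high doses of Coptidis, Zizyphi and Banhasasim-tang (points). DUSP5 is the highest gene in the Coptidis and Banhasasim-tang libraries and SPRED1 the lowest, while in the Zizyphi libraries DUSP6 is the highest.

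Over the 25 groups (24 extract doses and vehicle), the mean log2 CPM of SPRY2 followed that of PHLDA1 with a Pearson r of 0.96 (Spearman rho 0.76), DUSP5 that of ETV5 with 0.92 (0.57) and DUSP1 that of SPRY2 with 0.91 (0.78). For DUSP4 and SPRED2 r was 0.74 and rho 0.40, and for DUSP5 and SPRED1 r was -0.70 and rho -0.24. The groups share 1 scaling and include the few high doses with wide changes. Without high-dose Coptidis r was 0.95 for SPRY2 with PHLDA1, 0.85 for DUSP5 with ETV5, 0.86 for DUSP1 with SPRY2, 0.75 for DUSP4 with SPRED2 and -0.54 for DUSP5 with SPRED1, whose rho was then -0.15. Among 11168 genes of at least 5 CPM, those with the pattern most like DUSP6 were AP3M2 (0.82), LMF1 (0.81) and CASP4 (0.81). Those most like DUSP1 were IL6 (0.94), CD55 (0.92) and SAT1 (0.92).

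The other genes of the pathway were called in both directions, in herbs where many genes were: 33.2% of all genes tested were higher and 32.4% lower with Coptidis, and 20.6% and 18.6% with Bupleuri. Of 9 other MAPK phosphatases, 4 rose and 1 fell with Coptidis, led by DUSP10, a phosphatase for p38 and JNK (2.22 ± 0.09), and DUSP14 (-0.47 ± 0.06). With Bupleuri 2 rose and 1 fell, among them DUSP3 (0.98 ± 0.03) and DUSP2 (-1.23 ± 0.22). Their median log2 fold change was 0.18 and 0.08 in these herbs, below that of the 10 genes. Of 11 other tested inhibitors of receptors and RAS, 4 rose and 4 fell with Coptidis, including RASA1, a RAS GTPase-activating protein (1.17 ± 0.05), and SOCS3, the inhibitor of cytokine receptor signalling (-1.81 ± 0.09). With Bupleuri 1 rose and 4 fell, with SOCS3 at -0.59 ± 0.06.

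Of 17 other ERK output genes, 9 rose and 6 fell with Bupleuri, 9 rose and 2 fell with Aconiti, 8 rose and 7 fell with Coptidis, and 6 rose and 3 fell with Cimicifugae. Over all genes tested, 4.28% were higher and 5.25% lower with Aconiti and 4.88% and 5.81% with Cimicifugae. The cytokine gene LIF rose with Bupleuri from 26.8 to 83.9 CPM (1.65 ± 0.07), and the transcription factor gene MAFF with Coptidis from 13.9 to 76.8 CPM (2.47 ± 0.08). FOS, an immediate-early partner in AP-1, fell with both, by 1.13 ± 0.15 with Bupleuri and by 3.56 ± 0.32 with Coptidis on the log2 scale, from low levels of 3.46 and 2.56 CPM. With Aconiti IER3 rose (1.25 ± 0.23) and ETS1 fell (-0.29 ± 0.05). In the other extracts 3 rose and 2 fell with Citri, 1 rose and 1 fell with Zizyphi, and 3 fell with Yijung-tang, where 13.8%, 7.4% and 9.16% of all genes were called.

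Upstream, 16 growth factor ligands and 11 receptor tyrosine kinases were tested. Of the ligands 5 rose and 4 fell with Coptidis and 3 rose and 5 fell with Bupleuri, and of the receptors 4 rose and 4 fell with Coptidis and 2 rose and 4 fell with Bupleuri, herbs in which 65.6% and 39.2% of all genes were called. With Coptidis FGF7 fell from 34.8 to 2.09 CPM (-4.05 ± 0.15) and the receptor gene PDGFRA from 25.9 to 9.89 CPM (-1.39 ± 0.09), while FGFR3 rose (1.49 ± 0.14). With Bupleuri EGFR rose from 275 to 485 CPM (0.82 ± 0.06) and FGF2 from 231 to 365 CPM (0.66 ± 0.05), while PDGFRB fell from 87.7 to 41.9 CPM (-1.06 ± 0.04). KIT fell with Citri, Zizyphi, Cimicifugae and Yijung-tang, by 0.26 to 0.42 on the log2 scale. Of 16 genes of the RAS to ERK cascade itself, 11 rose and 2 fell with Coptidis, led by ARAF (0.56 ± 0.04) and SOS1 (-0.58 ± 0.08), and 5 rose and 1 fell with Bupleuri. Of the other extracts, Zizyphi had 1 that fell, and Cimicifugae and Yijung-tang had 1 each that rose.

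**Figure D5:**
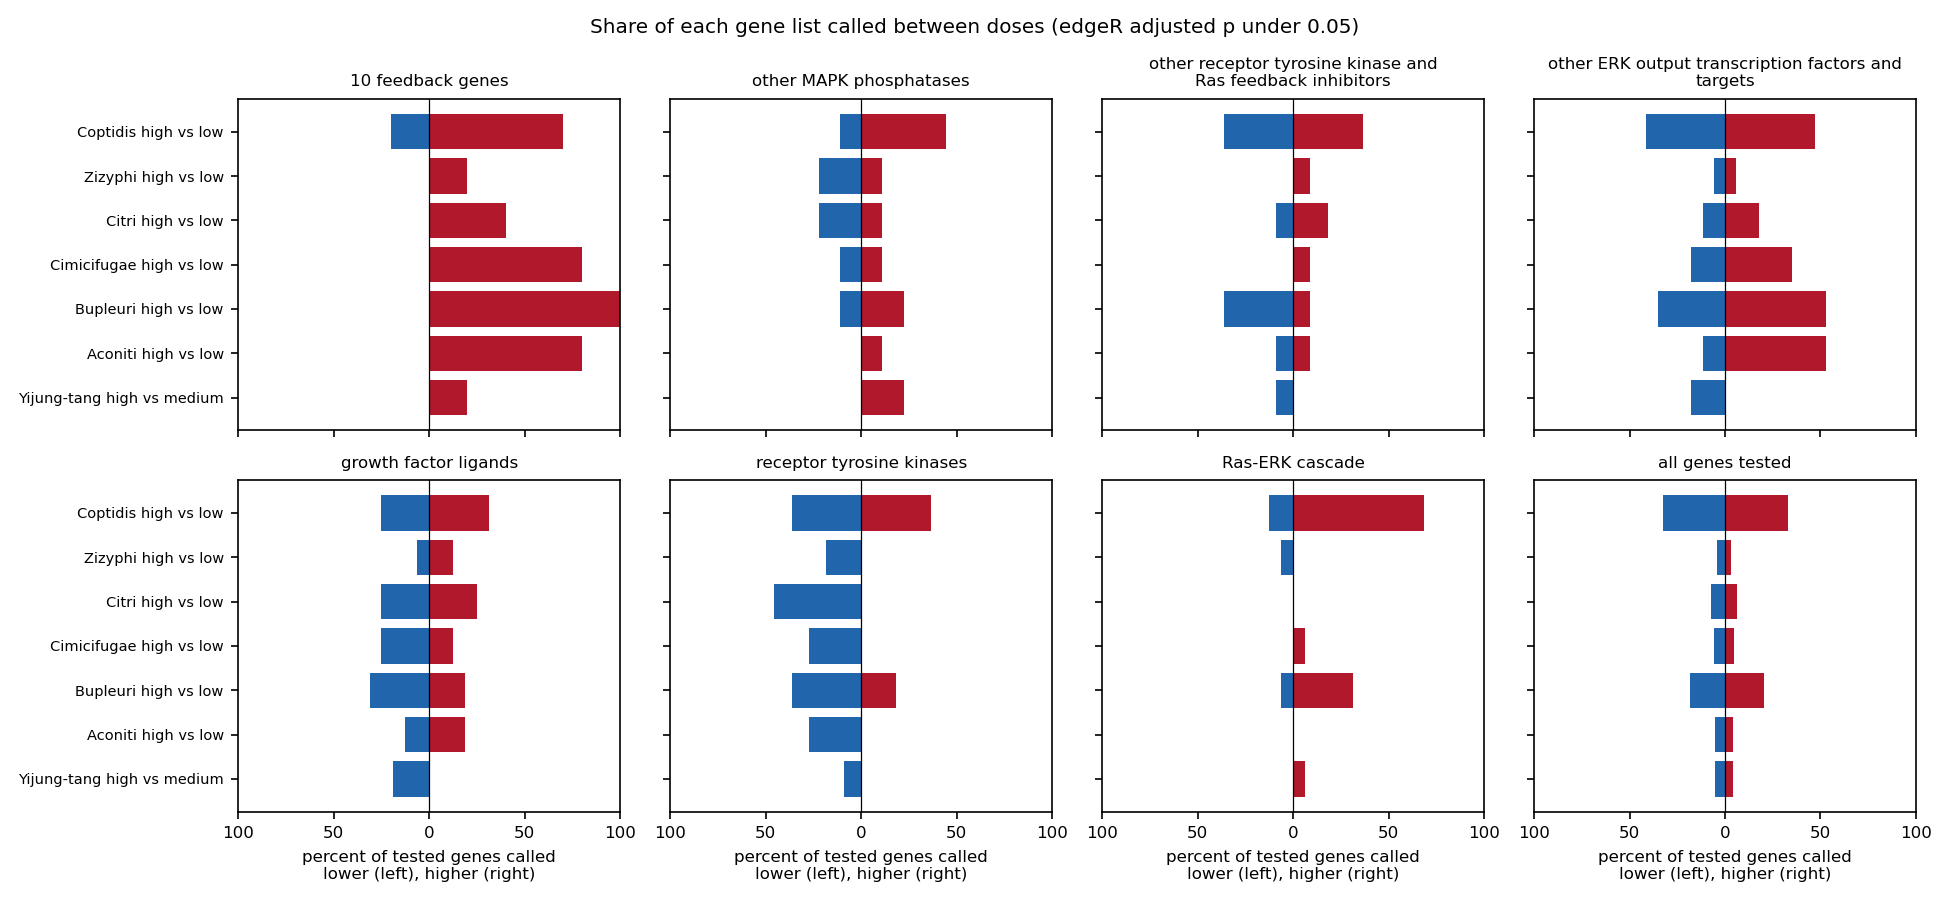
Percent of the tested genes of each list called higher (red, to the right) and lower (blue, to the left) between doses in each extract, with all genes tested in the last panel. The 10 feedback genes have calls to the left with 1 extract, Coptidis, whereas the other phosphatases, inhibitors, output genes, ligands and receptors have calls on both sides.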

How the data were processed

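The deposited table holds RSEM expected counts per gene for 60 libraries made by the authors, of which 9.18% are not whole numbers. Per the submitters' processing notes the tools were RSEM 1.3.3, STAR 2.7.3a, Trim Galore 0.6.5 and FastQC 0.11.9, and the build hg38 (GRCh38). Which annotation and strand setting were used is not stated in these sources, and the library kit marks strand per the labels. Symbols, positions and exon lengths came from GENCODE v29, which holds 57055 of the 60675 gene IDs and 99.97% of counts.

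Expected counts were rounded and fitted in R 4.3.3 with edgeR 4.0.16 (limma 3.58.1): filterByExpr with a minimum count of 10, TMM scaling, and a quasi-likelihood fit over 54 libraries of the 21 groups with 2 or 3 libraries (33 residual degrees of freedom, no replicate block). P-values were adjusted by Benjamini-Hochberg over the 17680 genes tested within each of 36 comparisons. Standard errors (SE) are the log2 fold change divided by the root of the F statistic. Count tests were checked on simulated data, with changes put into genes drawn at random. With the Coptidis design (2 libraries per dose) 12% of 1.15-fold, 44% of 1.3-fold and 74% of 2-fold changes were recovered. With the Bupleuri design (3 libraries) these were 22%, 52% and 68%. False calls were 4.04% and 4.63% of calls. A pair that was not called may therefore still have changed. CPM values use the same scaling over 58 libraries; likeness used log2 CPM with an offset of 0.5 CPM. The 10 genes and all lists were chosen with earlier results of these data known. From each pathway list, the called gene with the largest rise and with the largest fall in a dose comparison could be named, with the 3 genes most like DUSP6 and DUSP1. Depth, given as total counts per library, limits the precision of genes of low counts most. Alternatives were DESeq2 1.42.0, another scaling, no filter, only the groups compared, replicate blocks, each library or replicate number left out, and both divergent libraries included. Water extracts and positive controls were not analysed here.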

Additional observations from a re-analysis of the deposited data

Results flagged for a closer look

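Between the 2 herbs of a set, 12 of 30 differences of dose effect passed the edgeR test of the difference itself, which is what marked them for a closer look. All are differences of log2 fold changes (high minus low dose), and the herbs of a set share no samples.

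Coptidis exceeded Zizyphi for DUSP1 by 1.16, DUSP5 by 2.20, SPRY2 by 1.07, SPRY4 by 0.39, PHLDA1 by 1.49 and ETV5 by 1.33, and was below it for SPRED1, with a difference of -0.34, a call lost without all libraries numbered 3 (-0.27, adjusted p = 0.0914). The SPRY4 call was lost in 4 of 18 alternatives. In the contrast of Coptidis and Zizyphi 55.3% of all genes tested were called.

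Citri exceeded Cimicifugae for DUSP1 by 0.43 and was below it for SPRED2, with a difference of -0.31, where 1.07% of all genes were called. The DUSP1 call was lost without all libraries numbered 2 (0.37, adjusted p = 0.313) or 3 (0.47, adjusted p = 0.0541), the SPRED2 call when any 1 of 9 libraries was left out, and both with the divergent libraries included (adjusted p = 0.594 and 1). Bupleuri exceeded Aconiti for DUSP5 by 0.92 and PHLDA1 by 0.46, and was below it for DUSP1, with a difference of -0.40, where 23.4% of all genes were called. That DUSP1 call was lost in 1 of 21 alternatives, while those of DUSP5 and PHLDA1 held in every one. The doses of Coptidis and Zizyphi, and those of Bupleuri and Aconiti, differ in µg/mL.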

How the results depend on the processing

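Of the 43 dose calls, 24 held in every alternative, 7 in all but the one with both divergent libraries included, and 12 did not. DUSP6 held in all 6 herbs in every alternative. Every alternative scaled the libraries by TMM, by RLE or as DESeq2 does, and none used total counts alone. Per total count, DUSP6 with Coptidis was at 22.8 and 21.5 CPM at the high dose against 20.6 and 20.7 CPM at the low dose. That difference was smaller than with TMM scaling and was not tested. With both divergent libraries included, the members called in the dose comparisons fell to 7 for Bupleuri, 7 for Aconiti and 6 for Coptidis. They fell to 1 for Zizyphi, 2 for Citri, 1 for Cimicifugae and 0 for Yijung-tang. Against vehicle they fell to 8 for Coptidis, 7 for Bupleuri, 5 for Cimicifugae, and 2, 3 and 2 for Zizyphi, Citri and Yijung-tang. For the difference of Citri and Cimicifugae they fell to 0. Over all extracts they then numbered 24 for dose, 34 against vehicle, 8 at the medium dose, 0 at the low dose and 1 for medium against low, and SPRED1 with Aconiti turned to -0.08. With only the groups compared in the fit, 4 were called for Cimicifugae and 1 for Citri minus Cimicifugae, and with no filter 3 for medium against low.

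Leaving out 1 library, the count for dose ranged from 8 to 9 for Coptidis, 2 to 3 for Zizyphi, 3 to 5 for Citri, 4 to 7 for Cimicifugae, 7 to 8 for Aconiti and 1 to 2 for Yijung-tang, and stayed at 10 for Bupleuri. For Cimicifugae it was 4 without low-dose library 1 or high-dose library 3 and 5 without high-dose library 2. Against vehicle it ranged from 5 to 8 for Citri, 4 to 5 for Zizyphi and 3 to 4 for Yijung-tang, and for the differences from 6 to 7, 1 to 2 and 3 to 4 in the order of the sets.

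Leaving out all libraries of 1 replicate number gave 33 to 37 calls for dose, 36 to 49 against vehicle, 12 to 32 at the medium dose, 7 to 16 at the low dose and 1 to 5 for medium against low, with the lowest count without replicate 2 in each. By extract the dose count was then 1 to 2 for Zizyphi, 2 to 3 for Citri, 4 for Cimicifugae and 0 to 2 for Yijung-tang. The vehicle count was 2 to 6 for Zizyphi, 3 to 9 for Citri and 2 to 4 for Yijung-tang, and the difference of Citri and Cimicifugae had 0 to 1. DESeq2 gave 41 dose calls and 49 against vehicle. Libraries of a herb that share a replicate number did not deviate together in every pair (r of -0.26 for Zizyphi, -0.13 for Coptidis, -0.07 to 0.20 for Bupleuri, 0.03 to 0.31 for Citri, 0.04 to 0.31 for Cimicifugae, 0.04 to 0.05 for Aconiti and 0.22 for Yijung-tang). Every library correlated best with its own number in Cimicifugae but not in Citri or Bupleuri. Not every pair passed 0.1, so the numbers were taken as shared names only. With the replicate number as a block, the call of DUSP1 with Yijung-tang against vehicle was gained (0.17, adjusted p = 0.0408), and with a block within sets that of SPRY4 for Bupleuri minus Aconiti (-0.24, adjusted p = 0.0236). A crossed block, chosen after seeing the data, gave 9 calls for Coptidis and 3 for Zizyphi. Scaling by RLE moved the median of all genes by at most 0.01. Among the 10 genes the widest errors were those of DUSP5, the gene of lowest CPM in vehicle, with SE of 0.08 to 0.11 across the dose comparisons.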

Other observations

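Among the growth factor ligands, PDGFB, a ligand of the PDGF receptors, fell with 6 of the 7 extracts, from -1.19 ± 0.37 (SE) on the log2 scale with Aconiti to -2.50 ± 0.49 with Zizyphi. Its level was low, at 0.871 CPM at low-dose and 0.15 CPM at high-dose Zizyphi. FGF7, an epithelial growth factor, rose with Citri from 38.8 to 62.6 CPM (0.69 ± 0.07), while with Coptidis it was among the genes that fell. HGF, the ligand of MET, rose with Zizyphi (0.36 ± 0.08), and the EGF receptor ligands TGFA and EREG rose with Cimicifugae (0.42 ± 0.06) and Aconiti (1.06 ± 0.19).

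Among the other inhibitors, SPRED3 rose with Aconiti (0.40 ± 0.09), and ERRFI1, an inhibitor of the EGF receptor, rose with Cimicifugae (0.18 ± 0.04). SOCS3 fell with Yijung-tang (-0.27 ± 0.07). RASA1 rose with Zizyphi (0.33 ± 0.06), an extract with few calls among the 10 feedback genes. DUSP2, a nuclear phosphatase of low level here, rose with Citri (1.06 ± 0.18), Zizyphi (0.83 ± 0.24) and Cimicifugae (0.54 ± 0.18), and CCND1, encoding cyclin D1, fell with Citri (-0.30 ± 0.04) and Zizyphi (-0.23 ± 0.05). The genes named here are the largest rise or fall of their list in that extract.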
